A study of Homo sapiens with 6 samples.

Results

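Tet-on CaSm Panc-1 cells grown without doxycycline and tet-on driver Panc-1 cells grown with it are both control states, and they were compared here with each other, over 4 of the 6 plates in all. Panc-1 is a human pancreatic ductal carcinoma cell line. RNA was measured on quantitative PCR plates of genes that act in cancer pathways. The 4 plates were chosen by their labels, with earlier results of these data known. They comprise 2 of non-induced tet-on CaSm cells (replicates 1 and 2) and 2 of driver cells with doxycycline (replicates 2 and 3). Replicate numbers were assigned here in the order of the marks that end the plate titles, so equal numbers stand for equal marks. The remaining 2 plates hold tet-on CaSm cells with doxycycline (induced cells). All 89 genes of the array are described by function.

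The driver cells carry only the Tet-on-Advanced plasmid, which encodes the doxycycline-dependent transactivator. They are a G418-selected pool picked for its inducibility, and they were kept for 4 weeks in 1 μg/ml doxycycline. The tet-on CaSm cells derive from a subset of that pool, which also received the plasmid with full-length human CaSm under a tetracycline-responsive promoter and was selected with G418 and puromycin. They were kept for 4 weeks without doxycycline. Doxycycline, the CaSm plasmid, puromycin selection and the pool itself therefore differ together between the sides, and their shares in any difference cannot be told apart. No driver plate without doxycycline was analysed here. The sources used here do not say whether the 2 plates of a state came from separate cultures, so p-values measure the spread between these plates only, which may be technical.

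In a tet-on system the transactivator binds its promoter only when doxycycline is present, so the transgene is read in induced cells and is largely silent without the drug. CaSm is a subunit of a cytoplasmic ring complex that promotes decapping and decay of messenger RNA. Doxycycline is itself an antibiotic that blocks bacterial ribosomes and, at sufficient doses, mitochondrial ones. The RNA of CaSm was not analysed here, so its level without doxycycline is not given.

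Expression was read as ΔCt, the cycle at which a gene crossed the detection threshold (Ct, set to 35 where it was later) minus the plate's average Ct for 3 normalizing genes, B2M, HPRT1 and GAPDH. A ΔCt that is 1 cycle lower stands for about 1 log2 unit more RNA. That average was 20.3 and 20.2 on the non-induced plates and 20.1 and 20.2 on the driver plates. Between 80 and 86 of the 89 genes were detected before cycle 35 on each of the 4 plates. Of the marker genes chosen to check the cell type, none of 7 ductal epithelial markers is on the array, so the line's epithelial origin could not be checked. TEK, an endothelial receptor, had Ct values of 35.6 and 34.1 on the non-induced plates, and 40 and 33 on the driver plates, and GZMA, a granzyme of cytotoxic lymphocytes, lay between 34.9 and 36.6. CDKN2A, a gene known to be deleted in Panc-1, crossed the threshold late, at 33.63 and 32.64 on the non-induced plates and 32.11 and 33.04 on the driver plates, and the source of that signal was not tested.

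Non-induced tet-on CaSm cells had more RNA of THBS1, PLAUR and VEGFA than driver cells with doxycycline, and less of TNF, FAS and FGFR2. These were the genes with an adjusted p-value under 0.05, 6 of 85 tested (7.06%), with 3 higher (3.53%) and 3 lower (3.53%). The differences ran from 1.83-fold for FGFR2 to 4.15-fold for THBS1. Each gene was tested with limma fitted over all 6 plates with Benjamini-Hochberg adjustment, because an exact two-sided permutation test of 2 plates against 2 cannot give a p-value under 0.3333. Without adjustment 18 genes had a p-value under 0.05, 13 higher and 5 lower. In RNA from whole cultures, a change in the share of cells that express a gene and a change in RNA per cell cannot be told apart.

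THBS1 encodes thrombospondin-1, a secreted matrix protein that restrains the growth of blood vessels. Its ΔCt was 4.41 and 4.67 on the non-induced plates and 6.62 and 6.57 on the driver plates. Both non-induced plates were well apart from both driver plates, with a gap much wider than the spread within either pair. The log2 difference was 2.05 (standard error 0.24, adjusted p = 0.000274 from limma), or 4.15-fold more RNA in non-induced cells. It ranged from 1.92 to 2.19 as single plates were left out. The induced plates, at 5.19 and 5.32, lay between the control states.

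VEGFA encodes the main growth factor for endothelial cells, with an action on vessels opposite to that of THBS1. Its ΔCt was 3.60 and 3.87 on the non-induced plates and 4.60 and 4.94 on the driver plates. Both non-induced plates were the higher in expression, by a log2 difference of 1.03 (standard error 0.25, adjusted p = 0.0284 from limma), or 2.05-fold. PLAUR encodes uPAR, the cell surface receptor that gathers the protease urokinase (uPA) at the membrane. Its ΔCt was 6.41 and 6.78 on the non-induced plates and 7.69 and 7.82 on the driver plates. The pairs did not overlap, and PLAUR was 2.23-fold higher in non-induced cells (log2 difference 1.16, standard error 0.25, adjusted p = 0.0236 from limma). For VEGFA the induced plates, at 2.81 and 2.99, lay on the far side of the non-induced plates from the driver plates. The induced plates of PLAUR, at 6.05 and 6.39, lay on that side too, but 6.39 was almost equal to the 6.41 of non-induced replicate 1.

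TNF encodes the inflammatory cytokine tumor necrosis factor. Its Ct was late on every plate, at 35.5 and 34.1 on the non-induced plates and 32.6 and 32.5 on the driver plates. The ΔCt values were 14.66 and 13.92 against 12.51 and 12.25, where the first is at the Ct limit and is thus a lower bound. Both driver plates were above both non-induced plates in expression, by 3.76-fold (log2 difference −1.91, standard error 0.30, adjusted p = 0.0022 from limma). Without non-induced replicate 1, the plate at the limit, the log2 difference was −1.55 (adjusted p = 0.0708). With a Ct limit of 40 it was −2.14 (adjusted p = 0.0688 from limma).

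FAS encodes a death receptor at the cell surface. Its ΔCt was 8.81 and 8.31 on the non-induced plates and 7.34 and 7.60 on the driver plates. Driver cells had 2.13-fold more of its RNA (log2 difference −1.09, standard error 0.26, adjusted p = 0.0284 from limma). The induced plates, at 8.79 and 8.85, were as low in expression as the lower non-induced plate. FGFR2, a receptor tyrosine kinase for fibroblast growth factors, had a ΔCt of 7.56 and 7.50 on the non-induced plates and 6.71 and 6.61 on the driver plates. The plates within each pair were close, and driver cells were 1.83-fold higher (log2 difference −0.87, standard error 0.23, adjusted p = 0.0451 from limma). The induced plates of FGFR2 were at 7.26 and 7.09, between the control states, as were those of TNF at 13.57 and 13.13.

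**Figure D1:**
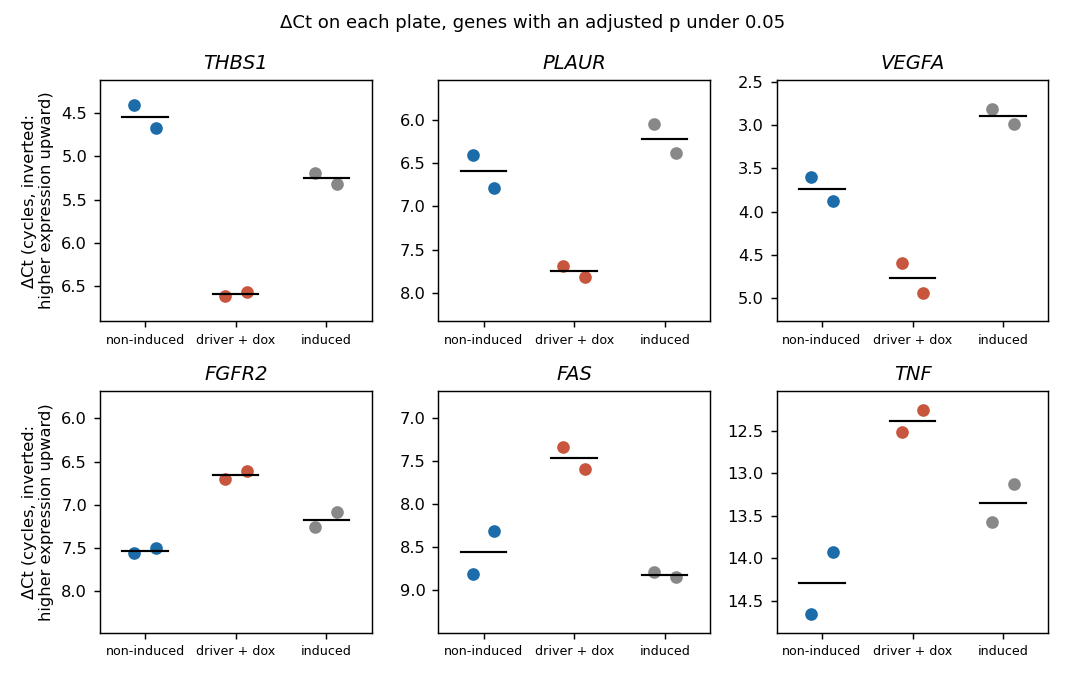
ΔCt in cycles (axis inverted, so that higher expression is upward) of the 6 genes with an adjusted p-value under 0.05, on each plate of non-induced tet-on CaSm cells, driver cells with doxycycline and induced tet-on CaSm cells. Points are plates (n = 2 per state), lines are means, and the lower non-induced point of TNF is at the Ct limit. In all 6 panels both non-induced plates lie on one side of both driver plates.

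The calls depended on the plates and the fit to different degrees. THBS1 kept an adjusted p-value under 0.05 in all 11 tested alternatives and with each plate left out. Under a replicate block only THBS1 and TNF kept theirs, and the log2 difference was then 0.91 for PLAUR (adjusted p = 0.453), 0.75 for VEGFA (adjusted p = 0.526), −1.12 for FAS (adjusted p = 0.203) and −0.77 for FGFR2 (adjusted p = 0.52, limma). Driver replicate 3 is the lone plate with its number, so under the block the driver side rests on driver replicate 2, and every gene had the same standard error of 0.40. The number of genes called was 1 without non-induced replicate 1, 2 without non-induced replicate 2, 7 without driver replicate 2 and 2 without driver replicate 3. Without driver replicate 2, and without driver replicate 3, every gene had the same standard error of 0.40. A call in either fit thus rests on the size of the difference alone. A side left with 1 plate is assumed, in the fits with a plate left out, to vary like the other plates. PLAUR and VEGFA kept their calls without driver replicate 2 alone among these, and FAS and FGFR2 lost theirs in all 4. The sign of all 6 differences was the same in every alternative.

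**Figure D2:**
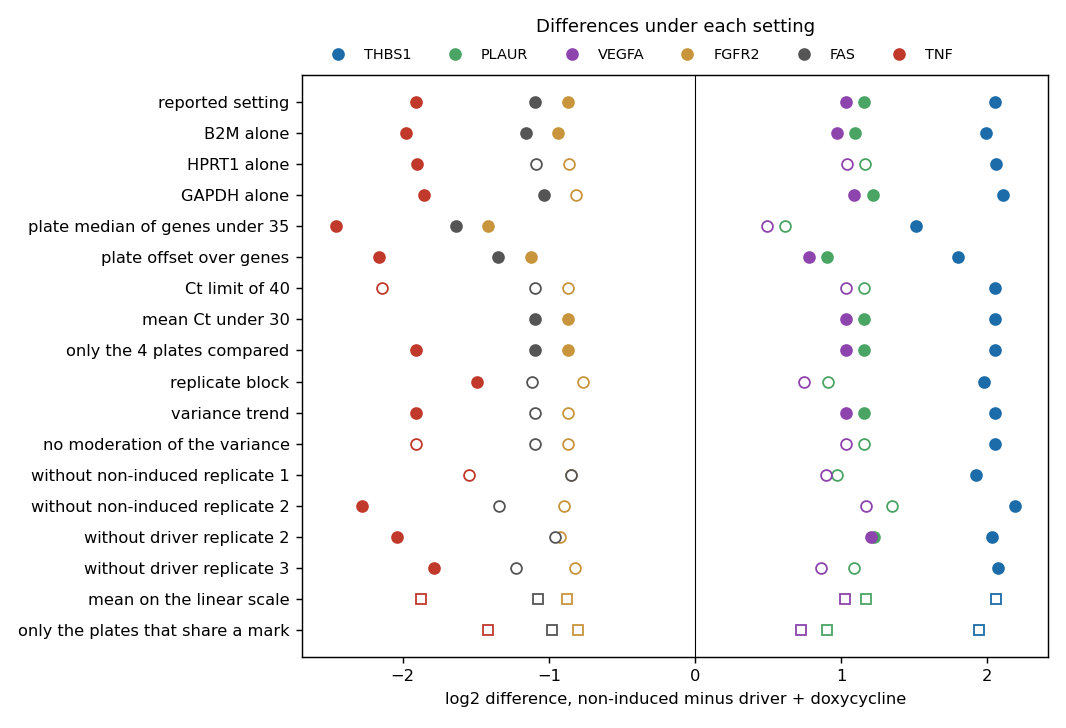
Log2 difference (non-induced tet-on CaSm minus driver cells with doxycycline) of the 6 called genes under the reported setting and each alternative. Filled circles have an adjusted p-value under 0.05 from limma, open circles do not, and squares are values without a test. THBS1 is filled in every row that has a test, and no gene crosses 0.

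Promoter sequence is shown for the called genes that have a single start site in the RefSeq promoter table (build GRCh38.p14), THBS1, TNF and PLAUR, since these include the largest difference in either direction. Each line gives the 250 bases before the start site, 5′ to 3′ on the strand of the gene. They lie at chr15:39580829-39581078 on the plus strand for THBS1, chr6:31575315-31575564 on the plus strand for TNF and chr19:43670170-43670419 on the minus strand for PLAUR. Capitals mark matches, on either strand, to the GC box GGGCGG in THBS1 and TNF and to the AP-1 site TGANTCA in PLAUR.
THBS1: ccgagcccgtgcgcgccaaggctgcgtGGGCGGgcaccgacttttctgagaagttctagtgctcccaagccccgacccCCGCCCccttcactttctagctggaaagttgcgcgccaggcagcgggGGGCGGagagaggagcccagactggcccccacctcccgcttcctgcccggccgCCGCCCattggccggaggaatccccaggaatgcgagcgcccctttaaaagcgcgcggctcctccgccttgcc
TNF: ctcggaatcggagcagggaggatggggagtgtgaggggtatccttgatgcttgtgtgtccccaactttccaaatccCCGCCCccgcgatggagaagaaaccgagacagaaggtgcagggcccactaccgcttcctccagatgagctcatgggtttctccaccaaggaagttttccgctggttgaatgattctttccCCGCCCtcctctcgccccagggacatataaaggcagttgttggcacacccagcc
PLAUR: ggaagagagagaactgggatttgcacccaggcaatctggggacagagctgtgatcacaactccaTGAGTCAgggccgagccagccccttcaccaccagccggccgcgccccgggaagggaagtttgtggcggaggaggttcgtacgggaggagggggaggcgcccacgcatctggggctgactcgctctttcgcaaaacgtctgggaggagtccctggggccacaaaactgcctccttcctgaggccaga
The window of THBS1 holds 4 GC boxes and that of TNF 2, and PLAUR has 1 AP-1 match. Of all 35116 windows in the table, 42.6% hold a GC box and 6.57% an AP-1 match, and of the 119 windows of genes on the array 58.8% and 8.4% do. The NF-kB motif and the hypoxia response core ACGTG, present in 1.73% and 18.5% of all windows, have no match in these 3 windows. A match is a string of letters only, and binding was not measured.

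Counting the called genes, a difference of at least 1.5-fold was reached by 14 genes higher in non-induced cells (16.5% of the 85). It was also reached by 5 that were lower (5.88%), and the plates of the 2 states did not overlap for any of these 19. Over all genes tested, plates did not overlap for 34 genes on the higher side (40%) and 9 on the lower side (10.6%). The median log2 difference over the 85 genes was 0.20, with 66 genes above 0 and 19 below.

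The size of this lean differed between plates. On driver replicate 3, 58 of the 85 genes (68.2%) were lower than on driver replicate 2, with a median log2 difference of −0.24 between these 2 plates of one state. Without driver replicate 3 the median difference between the states was 0.17, with 56 of 83 genes above 0, and 8 genes were at least 1.5-fold higher in place of 14. Non-induced replicate 2 and driver replicate 2 carry the same mark in their titles, whose meaning is not stated. On these 2 plates alone, which leaves out non-induced replicate 1 as well, the median was 0.07 over the 83 genes below the limit on at least 1 of them, with 49 above 0 and 34 below, and 6 genes reached 1.5-fold in each direction. Between non-induced replicate 1 and driver replicate 3 the median was 0.38. A plate offset was also taken, in place of the 3 normalizing genes, over the genes below the Ct limit on all 6 plates. With this offset 5 genes were at least 1.5-fold higher and 8 lower. With the plate median of the same genes 2 were higher and 18 lower. The corresponding calls were 3 higher and 5 lower with the offset, 1 higher and 6 lower with the plate median, and 4 higher and 2 lower with GAPDH alone. The plate median moved every gene by −0.54 and the plate offset by −0.25, and 47 and 28 of the 85 genes changed sign. The median log2 difference over the 85 genes was then −0.345 with the plate median and −0.055 with the offset. The plate median thus gave a lean in the opposite direction that was larger than the one in the reported setting.

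**Figure D3:**
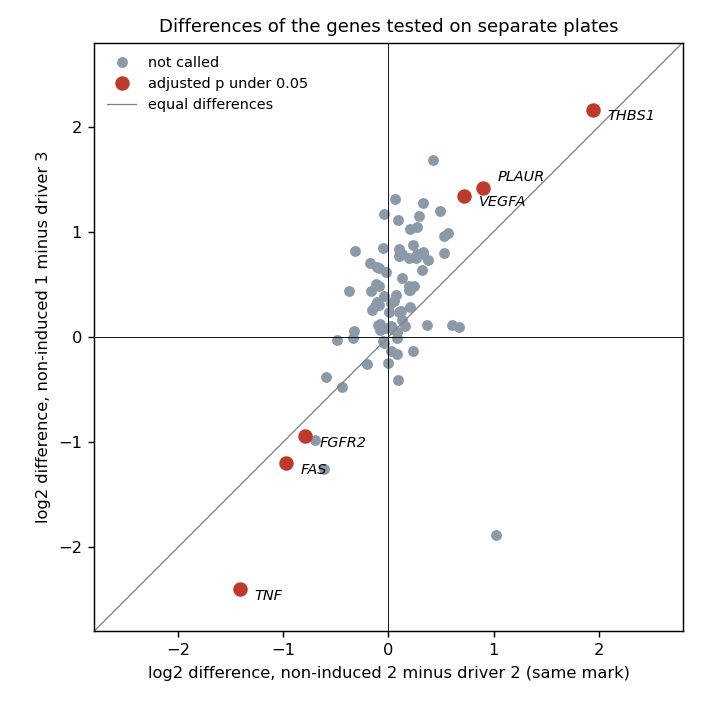
Log2 difference of each of the 85 genes tested between non-induced replicate 2 and driver replicate 2 (horizontal axis, plates with the same mark) and between non-induced replicate 1 and driver replicate 3 (vertical axis). Red points are the 6 called genes, and the diagonal marks equal differences. Of the 79 grey points, 62 lie above the diagonal. The called genes lie away from 0 on both axes, and the fit that called them included these plates. The grey point at the lower right is TEK, which was near the Ct limit.

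All 6 called genes differed by at least 1.5-fold on the plates with the shared mark alone. These plates were part of the fit that called the genes, so this is no separate check. The log2 differences there were 1.94 for THBS1, 0.90 for PLAUR, 0.72 for VEGFA, −1.42 for TNF, −0.98 for FAS and −0.80 for FGFR2. Another 13 genes passed 1.5-fold over all 4 plates but not the adjusted test, 11 higher and 2 lower, with adjusted p-values from 0.0538 to 0.243 from limma. Because their plates did not overlap, the sign on the plates with the shared mark was bound to be the same for all 13. On those plates 2 of them, SERPINB5 and MTSS1, were at least 1.5-fold apart.

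**Figure D4:**
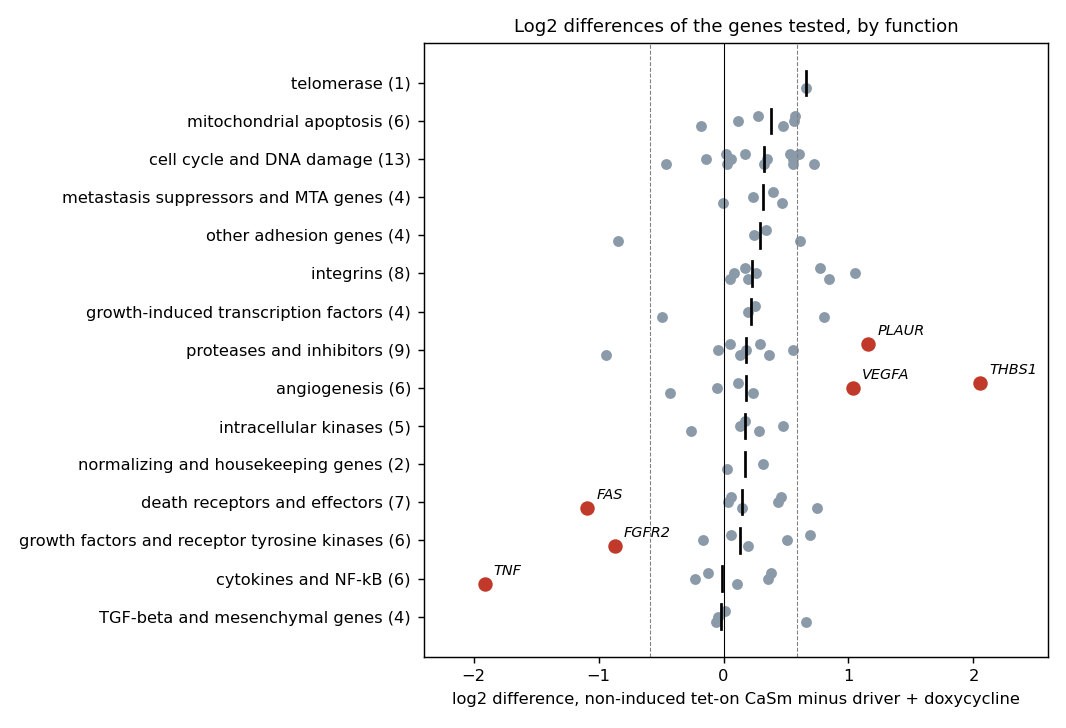
Log2 difference (non-induced tet-on CaSm minus driver cells with doxycycline) of the 85 genes tested, by functional group, with the number tested in brackets. Points are genes, red with an adjusted p-value under 0.05 from limma, black bars are group medians and dashed lines mark 1.5-fold. The called genes fall in 5 groups, and most group medians lie between 0 and 0.4.

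Among the 6 angiogenesis genes, the activator VEGFA and the inhibitor THBS1 were both higher in non-induced cells. The other 4 did not pass the test. COL18A1, the source of the vessel inhibitor endostatin, was detected early, and its plates overlapped between the states, with a ΔCt of 1.18 and 1.53 against 1.54 and 1.41. Of the ligands of the receptor TEK, ANGPT2 had a log2 difference of −0.05 and ANGPT1 was at the Ct limit on all but 1 plate. TEK itself had −0.43, and was at the Ct limit on non-induced replicate 1 and on driver replicate 2. Levels that late set no order. The group median was 0.18, against 0.20 over all genes.

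Of the 6 cytokine and NF-kB genes, TNF was lower in non-induced cells and the other 5 did not pass the test. IL8, a neutrophil chemokine listed under its older name, had a log2 difference of 0.11. NFKB1, an NF-kB subunit, and NFKBIA, the inhibitor that holds NF-kB in the cytoplasm, had −0.13 and −0.23. Both driver plates were above both non-induced plates for these 2 genes as for TNF, and for 9 of all 85 genes (10.6%). For NFKB1 the nearest plates were almost equal, with a ΔCt of 3.723 on non-induced replicate 2 and 3.717 on driver replicate 2. The difference reached 1.5-fold for TNF alone. The interferon genes IFNA1 and IFNB1 were detected late, IFNA1 with 0.38 and IFNB1 with 2 of the 4 plates at the limit. The group median was −0.01, with 3 genes on either side of 0.

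Of the 7 death receptor genes, FAS was lower and none was called higher. TNFRSF10B, a receptor for the death ligand TRAIL, had a ΔCt of 3.82 and 3.97 on the non-induced plates and 4.51 and 4.78 on the driver plates. Its plates did not overlap, in the direction opposite to FAS, and the log2 difference was 0.75 (adjusted p = 0.142 from limma). TNFRSF1A, the widely expressed receptor for TNF, had 0.15, and CASP8, the protease that death receptors switch on, had 0.03. CFLAR, which blocks CASP8, and TNFRSF25 had 0.46 and 0.44, while GZMA was at the limit on all but 1 plate. The group median was 0.15.

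None of the 6 mitochondrial apoptosis genes passed the test. BCL2 and BCL2L1, which protect mitochondria, had log2 differences of 0.48 and 0.56. BAX and BAD, which promote cell death, had 0.28 and −0.18, and APAF1, the core of the apoptosome, had 0.57. BCL2L1 shows how far a single plate reached: its ΔCt was 3.60 on non-induced replicate 1 and between 4.52 and 4.77 on the other 3 plates. On the plates with the shared mark BCL2L1 had −0.05, BAX −0.11 and BAD −0.34. The group median was 0.38 over all 4 plates and −0.08 on those plates.

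The cell cycle and DNA damage genes were the largest group, with 13 tested, 11 above 0 and none called, where 66 of all 85 genes lay above 0. The 11 became 8 with B2M alone, 7 with the plate offset and 4 with the plate median. CDC25A, a phosphatase that activates cyclin-dependent kinases, had a log2 difference of 0.72, and E2F1, the transcription factor that turns on genes for DNA replication, had 0.60. E2F1 was 0.27 without non-induced replicate 1, 0.94 without non-induced replicate 2 and 0.09 on the plates with the shared mark. CDC25A had a ΔCt of 6.83 and 6.95 on the non-induced plates and 7.25 and 7.98 on the driver plates, so that the driver plates differed from each other by more than the nearest plates of the 2 states did. CDK2 and its partner CCNE1, the kinase and cyclin of S phase entry, had 0.56 and 0.55, with p-values that did not pass adjustment. MDM2, a ubiquitin ligase, had 0.53.

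The remaining genes of the group lay between −0.46 and 0.35. CDKN1A, an inhibitor of cyclin-dependent kinases, had −0.14 and the kinase CDK4 had 0.06. ATM, BRCA1, CHEK2 and RB1, which act in DNA damage signalling, repair and restraint of the cycle, lay between 0.03 and 0.35. CDKN2A had the lowest value of the group, −0.46, at a late Ct, and it ran from −0.87 to −0.05 as single plates were left out, nearest 0 without non-induced replicate 1. The group median was 0.32 over all 4 plates and 0.12 without driver replicate 3. TERT, the catalytic subunit of telomerase, had a log2 difference of 0.66 at a Ct of 33.03 to 33.71 (adjusted p = 0.208 from limma).

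FGFR2 was the only gene of the 6 growth factor and receptor tyrosine kinase genes to pass the test. ERBB2, an orphan receptor that pairs with other receptors of its family, had the largest difference upward, 0.69, and its ΔCt was 6.61 and 6.96 against 7.03 and 7.92. MET, the receptor for hepatocyte growth factor, had 0.20. The platelet-derived growth factor genes PDGFA and PDGFB had 0.51 and 0.06, and IGF1, detected late, had −0.16. The 5 intracellular kinases had none called. PIK3R1, the regulatory subunit of PI3-kinase, had 0.47, AKT1 0.28, MAP2K1 0.13 and SYK, near the limit, −0.26.

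Among the 4 growth-induced transcription factors none passed the test. MYC had a ΔCt of 5.68 and 6.12 on the non-induced plates and 6.46 and 6.95 on the driver plates, a log2 difference of 0.80 (adjusted p = 0.162 from limma). ETS2 lay on the other side, with 3.20 and 3.45 against 2.86 and 2.81, a log2 difference of −0.49. Plates did not overlap for either gene. FOS and JUN, the partners of AP-1, had 0.19 and 0.25, but −0.12 and −0.32 on the plates with the shared mark.

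All 8 integrin genes, which encode adhesion receptors for the matrix, lay above 0, as did 66 of all 85 genes, and none passed the test. ITGA3, a laminin-binding subunit, had a ΔCt of 1.09 and 1.62 on the non-induced plates and 2.05 and 2.77 on the driver plates. Its plates did not overlap, but driver replicate 3 stood apart from driver replicate 2, and the log2 difference was 1.05 (adjusted p = 0.0538 from limma). In 5 of 11 alternatives the adjusted p-value of ITGA3 was under 0.05. ITGB1, the beta subunit shared by many integrins, had 0.77 and ITGA1, a collagen-binding subunit, 0.84. The subunits ITGAV, ITGA2, ITGA4, ITGB3 and ITGB5 lay between 0.05 and 0.26. The direction of the group followed the scaling: 7 of 8 lay above 0 with B2M alone, 4 with the plate offset and 3 with the plate median, which left 19 of all 85 genes above 0. On the plates with the shared mark, 3 of 8 lay above 0.

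Of the 4 other adhesion genes, MTSS1, an actin-binding protein named for its loss in metastasis, had the largest difference. Its ΔCt was 13.32 and 13.12 on the non-induced plates and 12.43 and 12.33 on the driver plates. The plates within each pair were close and the pairs apart, with a log2 difference of −0.84 (adjusted p = 0.0538 from limma) at late Ct values. MCAM, a cell adhesion molecule of the immunoglobulin family, had 0.61, PNN 0.34 and EPDR1 0.24.

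PLAUR was the only gene of the 9 protease and inhibitor genes to pass the test. PLAU, which encodes its ligand uPA, had a ΔCt of 0.13 and 0.35 on the non-induced plates and 0.60 and 0.61 on the driver plates, a log2 difference of 0.36 (adjusted p = 0.405 from limma). SERPINB5 (maspin), a serpin regarded as a tumor suppressor in breast, had 13.63 and 13.05 against 12.44 and 12.37. It was detected late and lay lower in non-induced cells, with a log2 difference of −0.94 (adjusted p = 0.0538 from limma). The gelatinases MMP2 and MMP9 had 0.55 and 0.13 and the collagenase MMP1 0.05. Their inhibitor TIMP1 had 0.18, and TIMP3 was at the limit on all but 1 plate.

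In the TGF-beta and mesenchymal group, 4 of 5 genes were tested and none passed. TGFB1, the ligand, had a ΔCt of 3.86 and 4.26 on the non-induced plates and 4.54 and 4.90 on the driver plates, a log2 difference of 0.66 (adjusted p = 0.208 from limma). The receptor TGFBR1 had −0.06, S100A4 0.01 and SNCG −0.05, and TWIST1 was at the limit on all 4 plates and was not tested. Of the 4 metastasis suppressor and MTA genes, MTA1 and MTA2, subunits of a chromatin remodelling complex, had 0.47 and 0.39. The nucleoside diphosphate kinases NME1 and NME4 had 0.23 and −0.01, and HTATIP2, grouped with apoptosis, had 0.11.

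The normalizing genes differed little between the states. B2M had Ct values of 20.8 and 20.7 on the non-induced plates and 20.6 and 20.9 on the driver plates. HPRT1 had 22.0 and 21.8 against 21.7 and 21.9, and GAPDH 18.2 and 18.1 against 18.0 and 18.0. The ranges of the states overlapped for B2M and HPRT1, while GAPDH was slightly later on both non-induced plates. Of the housekeeping genes outside the scaling, ACTB had a log2 difference of 0.03 and RPL13A, a ribosomal protein gene, 0.32 (adjusted p = 0.481 from limma).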

How the data were processed

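Expression of 89 genes was measured on a PCR array (SABiosciences Cancer PathwayFinder) run on a Roche Lightcycler. The authors deposited the Ct of each gene on each plate in PCR cycles, without normalization. How the threshold was set is not given in the sources used here. A deposited table of signed fold changes holds the authors' own comparisons and was not used.

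Ct values above 35 were set to 35, and the plate mean of B2M, HPRT1 and GAPDH was subtracted. These 3 genes and TWIST1, at the limit on all 4 plates, were left out, which left 85 genes tested. The sign-turned ΔCt of all 6 plates entered limma 3.58.1 (R 4.3.3) as 3 group means, with 3 degrees of freedom left for the spread, and non-induced and driver cells were contrasted. Benjamini-Hochberg adjustment covered all genes tested, with thresholds of 0.05 and 1.5-fold. Precision is limited by the number of plates, and the median standard error was 0.26 log2 units. The fit was tested on simulated data, with noise drawn separately for each gene and no shift shared by the genes of a plate. The lean between plates described above was not simulated. Python 3.11.15, pandas 2.3.3 and matplotlib 3.10.9 were used for counts and figures.

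Genes were named if their adjusted or unadjusted p-value was under 0.05, if they differed by 1.5-fold with plates that did not overlap, or if they were extreme in their group. The comparison, the gene groups and the lists were chosen with earlier results of these data known. Other named genes complete their groups. The values of some genes are not reported here, though the counts include them. Of the names, 88 matched a symbol and 1 a synonym in RefSeq tables. Alternatives were other normalizing genes, a plate median, a plate offset (added after seeing the data), a Ct limit of 40, a mean Ct under 30, only the 4 plates, a replicate block, a variance trend, no moderation, means on the linear scale, only the plates with the shared mark and each plate left out.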

Additional observations from a re-analysis of the deposited data

How the results depend on the processing

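Of the 6 genes called, THBS1 kept an adjusted p-value under 0.05 from limma in all 11 alternatives, TNF in 8 of 10, PLAUR, VEGFA and FAS in 6 of 11 and FGFR2 in 5 of 11. Among the genes not called, ITGA3 was under 0.05 in 5 of 11, and MTSS1 and SERPINB5 in 4 of 10 each. With B2M alone 9 genes were called, and also 9 with only the 4 plates compared. Both settings added ITGA3, MTSS1 and SERPINB5 to the 6. The number of genes called was 1 with a Ct limit of 40, 2 with HPRT1 alone, 10 with genes of a mean Ct under 30, 2 with a replicate block, 1 without moderation of the variance, and 1 to 7 with each plate left out. Under the Ct limit of 40 and without moderation, 14 and 13 genes had an unadjusted p-value under 0.05. With GAPDH alone every gene had the same standard error, 0.34, so calls there rest on the size of the difference alone. With genes of a mean Ct under 30, 66 genes were tested, and TNF was not among them. At least 1.5-fold was reached by 12 genes on the plates with the shared mark and by 14 to 33 with a plate left out, the highest without driver replicate 2.

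The compared states share only replicate number 2, so the replicate block was fitted over all 6 plates. The 2 tet-on CaSm states share numbers 1 and 2, and their differences between replicates correlated at r = −0.17 across 76 genes, which are not independent. A crossed replicate block, added after seeing the data, also gave 2 calls. A block leaves little to measure the spread with, so equal counts of calls cannot tell a true pairing from a false one. The meaning of the marks behind the numbers is not stated, and the numbers were not taken to pair the plates.

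Over all 85 genes, 47 changed sign with the plate median, 28 with the plate offset, 8 with B2M alone and 4 with GAPDH alone. Among the 32 genes named by the rule, those that changed sign with a scaling or a block, none of them called, were IFNA1 (−0.16), MTA1 (−0.075), PIK3R1 (−0.07) and RPL13A (−0.23) with the plate median, and NME4 with GAPDH alone (0.05) and with the replicate block (0.03). TEK changed sign with a Ct limit of 40 (1.77) and with the block (0.94). With each plate left out the log2 difference ran from −0.40 to 0.042 for BAD, −0.23 to 0.21 for NME4, −0.53 to 0.015 for SYK, −1.50 to 0.64 for TEK and −0.18 to 0.07 for TGFBR1. The cause was not tested. Late Ct values limit the comparison of genes near the limit.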
